A study of Mus musculus with 6 samples.

Results

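The 9 enzymes described here carry out successive steps of triglyceride synthesis, of which the earlier ones also feed phospholipid synthesis. Their mRNA was compared between 3T3-L1 adipocytes infected with a *Lmo3* adenovirus (AdLmo3) and cells infected with a *LacZ* adenovirus (AdLacZ). They were taken by gene symbol from all 6 count tables as *Gpam*, *Agpat1*, *Agpat2*, *Agpat3*, *Lpin1*, *Lpin2*, *Lpin3*, *Dgat1* and *Dgat2*, which makes 9 of the 24421 listed genes. 3T3-L1 is a mouse fibroblast line that turns into lipid-storing adipocytes when treated with hormones. The sample labels give its strain as C57BL/6, whereas the line itself was derived from Swiss 3T3 fibroblasts. All cultures received insulin and a thiazolidinedione (TZD), an agonist of the nuclear receptor PPARγ, with dexamethasone and IBMX in the first days of differentiation. They were infected on day 7 at 100 pfu/cell, and RNA was collected 72 h later from 3 separate infections with each virus, so that the control cells carried an adenovirus too and uninfected cells were not analysed here. The *Lmo3* insert is described in the methods as codon-optimized.

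Adipocytes store energy as triglyceride, a glycerol backbone with a fatty acid on each carbon, which the endoplasmic reticulum and mitochondrial membranes assemble stepwise. Glycerol-3-phosphate acyltransferases (GPAT, among them *Gpam*) attach the first fatty acid and make lysophosphatidic acid. Acylglycerol-phosphate acyltransferases (AGPAT) attach another and make phosphatidic acid. Lipins remove the phosphate to give diacylglycerol, and diacylglycerol acyltransferases (DGAT) add the last fatty acid. Loss of AGPAT2 in people and of lipin 1 in mice leads to lipodystrophy, a lack of adipose tissue. *Dgat1* and *Dgat2* encode proteins of unrelated families that carry out the same reaction.

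The libraries held 28035639 to 38332335 counts on genes, and 12766 genes passed edgeR's filter on low counts and were tested, all 9 enzymes among them. Levels are given as TMM-scaled CPM, read counts set relative to library size, differences as log2 fold changes of AdLmo3 over AdLacZ, and a gene is called changed at an adjusted p under 0.05 in edgeR's quasi-likelihood test with Benjamini-Hochberg adjustment over all tested genes. No read was counted on native *Lmo3* in any library (0 counts, which allow up to 0.0768 to 0.111 CPM), and the group labels could therefore not be checked through this gene. All 14 listed adipocyte markers had counts in every library, and so had all 14 markers of preadipocytes and fibroblasts. Among the latter the collagen gene *Col3a1* had 11383 ± 1422 CPM in AdLacZ libraries (SD, n = 3). By contrast, *Cd34* had 6 to 20 counts in a library, and *Wnt10b* had 3 to 9 and was not tested. With 3 libraries a group, 0.1 is the smallest two-sided p of an exact permutation test.

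*Agpat2*, *Lpin1* and *Dgat1* rose in AdLmo3 libraries, by 1.77-fold, 1.52-fold and 1.62-fold, and the other 6 enzymes did not pass the test. The AGPAT, lipin and DGAT steps thus had 1 called enzyme each, and *Gpam*, the enzyme of the GPAT step in the set, was not called. Of all tested genes 4.28% were called, 2.71% higher and 1.57% lower, beside which stand 3 of 9 enzymes called higher and 0 lower. At an unadjusted p under 0.05 edgeR had 5 enzymes higher and 1 lower, against 20.6% of all tested genes in either direction. DESeq2 and limma voom also called 3 higher and 0 lower, where they called 1110 and 562 of all genes, against 547 in edgeR. The median log2 fold change of the 9 enzymes was 0.18, and that of all tested genes was 0.0014. AdLacZ and AdLmo3 libraries did not overlap for 5 enzymes on the higher side and for 1 on the lower side, against 13.3% and 13.2% of all tested genes (26.5% in either direction). In these cultures a change per cell and a change in the share of differentiated cells cannot be told apart.

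**Figure D1:**
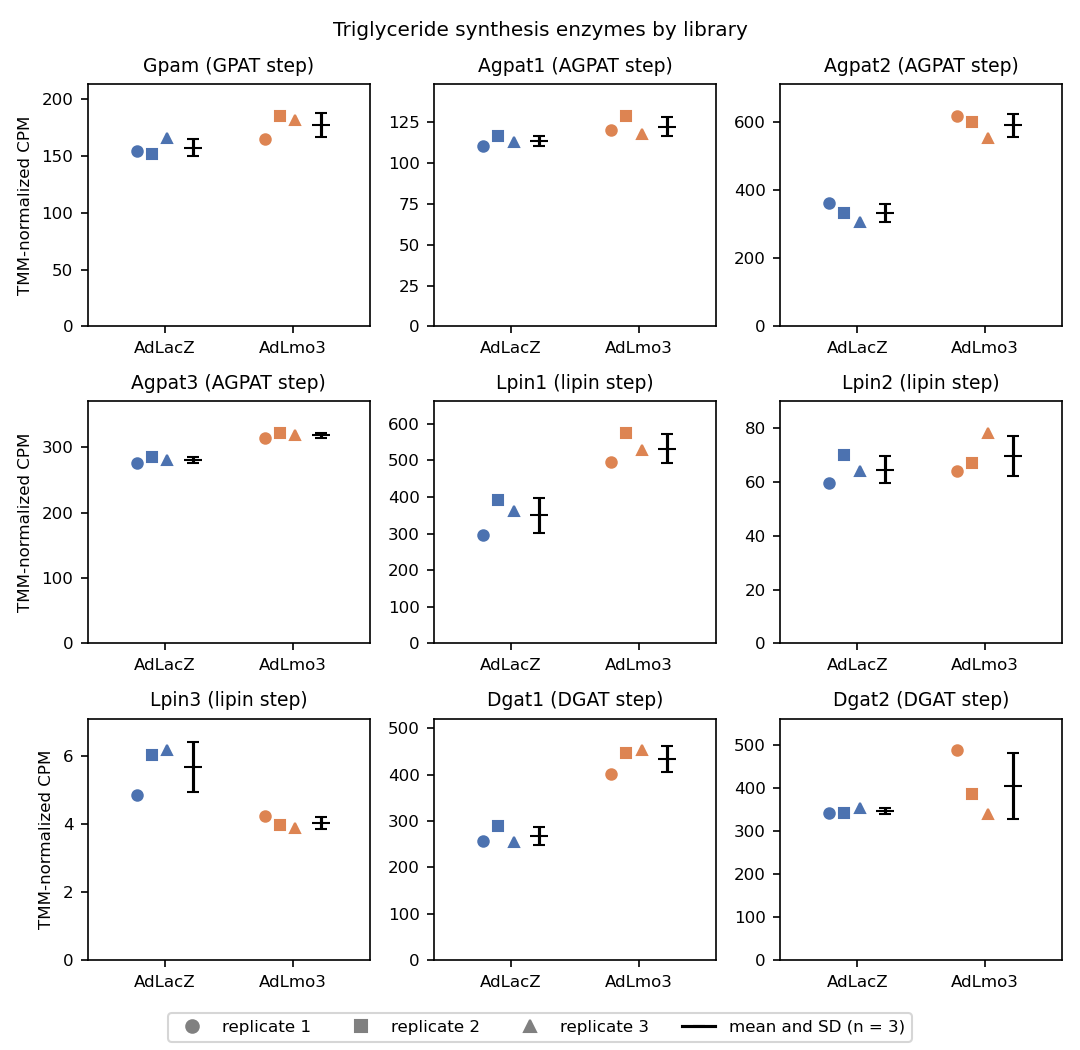
TMM-normalized CPM (vertical axes, from 0) of the 9 enzymes in 3 AdLacZ (blue) and 3 AdLmo3 (orange) libraries, with a marker shape for each replicate number and the mean ± SD in black. The groups do not overlap for *Agpat1*, *Agpat2*, *Agpat3*, *Lpin1* and *Dgat1* on the higher side and for *Lpin3* on the lower side. AdLmo3 replicate 1 stands above all other libraries for *Dgat2*, at 489 CPM.

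The stretches of 250 bases before the annotated starts of *Agpat2* and *Lpin1* are shown because these are the called enzymes with an entry among the RefSeq promoter sequences (build GRCm38.p6), which matched 7 of the 9 enzymes and not *Dgat1* and *Dgat2*. The *Agpat2* stretch is chr2:26604418-26604667 and the *Lpin1* stretch chr12:16610967-16611216, both on the minus strand and written 5′ to 3′ with the matches of the motifs searched in capitals.
Agpat2: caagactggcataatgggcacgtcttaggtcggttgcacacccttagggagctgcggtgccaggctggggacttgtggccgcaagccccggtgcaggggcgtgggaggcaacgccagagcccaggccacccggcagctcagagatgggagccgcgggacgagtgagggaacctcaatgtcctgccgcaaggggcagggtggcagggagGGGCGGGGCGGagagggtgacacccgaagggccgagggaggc
Lpin1: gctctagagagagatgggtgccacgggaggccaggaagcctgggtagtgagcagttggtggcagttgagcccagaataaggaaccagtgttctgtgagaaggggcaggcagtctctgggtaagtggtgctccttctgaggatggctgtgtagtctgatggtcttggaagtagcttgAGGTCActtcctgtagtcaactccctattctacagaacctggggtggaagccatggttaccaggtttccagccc
The capitals mark 2 overlapping GC boxes (GGGCGG, the motif of Sp1-type factors) in *Agpat2*, which begin 42 and 37 bases before the start, and 1 nuclear receptor hexamer (AGGTCA) in *Lpin1*, which begins 74 bases before it. Neither stretch held a CCAAT box (CCAAT), an E-box (CACGTG) or a C/EBP core (TTGCNNAA), with both strands searched for every motif. The GC box was in 7 of the 12 stretches of the 7 enzymes, some of which have several starts, and in 32.7% of all 32851 stretches of that length. The hexamer was in 3 of the 12, those of *Lpin1*, *Agpat1* and *Gpam*, and in 14% of all. The stretch of *Agpat2* was 69.2% and that of *Lpin1* 54.8% G and C.

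*Gpam*, the gene for the mitochondrial GPAT (GRCm38 chromosome 19, 55067268 to 55127238), had 154, 152 and 165 CPM in AdLacZ replicates 1, 2 and 3. In AdLmo3 replicates 1, 2 and 3 it had 165, 185 and 182 CPM. The highest AdLacZ and the lowest AdLmo3 library were within 1 CPM of each other and overlapped. The fold change was 1.13 (95% interval 1.00 to 1.26), and the adjusted p from edgeR was 0.229. The related *Gpat3* and *Gpat4*, listed in the tables under the older symbols Agpat9 and Agpat6, encode GPAT enzymes of the endoplasmic reticulum. *Gpat3* had 344 ± 72.4 CPM in AdLacZ and 324 ± 35.5 CPM in AdLmo3 libraries (SD, n = 3 each), with a log2 fold change of -0.08 (edgeR adjusted p = 0.815). *Gpat4* had 156 ± 10.1 and 164 ± 8.78 CPM, with a log2 fold change of 0.07 (edgeR adjusted p = 0.661).

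Divided by transcript length, *Gpat3* was the most abundant of these GPAT genes, with 112 ± 23.7 CPM per kb in AdLacZ libraries, where *Gpat4* had 28.3 ± 1.83 and *Gpam* 25.5 ± 1.17 CPM per kb (SD, n = 3 each). Exons of other genes overlap 37.4% of the *Gpat3* exon sequence, on both strands, and its level carries that uncertainty. Summed over the 3 genes, the GPAT step had 166 ± 26.0 CPM per kb in AdLacZ and 164 ± 11.5 CPM per kb in AdLmo3 libraries. No gene of the step was called, and the summed level differed by less than its SD. *Gpat2*, a GPAT known mainly from testis, had at most 2 counts in a library and was not tested.

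*Agpat2*, the AGPAT of adipose tissue, lies on chromosome 2 from 26593057 to 26604417. It had 360, 331 and 305 CPM in AdLacZ replicates 1, 2 and 3, and 616, 599 and 552 CPM in AdLmo3 replicates 1, 2 and 3. The lowest AdLmo3 library was far above the highest AdLacZ library, and the groups did not overlap. The log2 fold change was 0.83 (standard error 0.0848, edgeR adjusted p = 0.00352), and *Agpat2* kept its call without each of the libraries in turn. Of its exon sequence, 3% is also covered by *Egfl7* on the opposite strand, but no stretch of the read length of 75 bp in its longest transcript occurs in another gene.

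*Agpat1*, on chromosome 17 from 34604262 to 34613449, encodes a widely expressed AGPAT. It had 110, 117 and 113 CPM in AdLacZ and 120, 129 and 118 CPM in AdLmo3 replicates 1, 2 and 3. All AdLmo3 libraries were above all AdLacZ libraries, by a narrow margin. The fold change was 1.08 (95% interval 0.973 to 1.19, edgeR adjusted p = 0.393). Of the *Agpat1* exon sequence, 3.37% is also covered by *Egfl8* on the opposite strand. Of the 75 bp stretches in its longest transcript, 1.28% also occur in *Egfl8*.

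*Agpat3*, on chromosome 10 from 78269178 to 78352489, had 276, 285 and 281 CPM in AdLacZ and 313, 322 and 319 CPM in AdLmo3 replicates 1, 2 and 3. The groups did not overlap here either, and the spread within them was the smallest of the 9 enzymes relative to their level. The fold change was 1.13 (95% interval 1.03 to 1.25), with an unadjusted p of 0.0168 and an adjusted p of 0.140 from edgeR, so that *Agpat3* was not called.

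*Agpat4* and *Agpat5*, further members of the family, had 14.3 ± 1.64 and 39.8 ± 2.88 CPM in AdLacZ libraries (SD, n = 3), and their log2 fold changes were 0.08 and 0.06 (edgeR adjusted p = 0.749 and 0.747). Among the 5 measured AGPAT genes *Agpat2* was the one called.

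*Lpin1*, on chromosome 12 from 16535669 to 16610966, encodes lipin 1, the main lipin of adipose tissue, which also acts as a transcriptional coregulator. It had 297, 391 and 361 CPM in AdLacZ replicates 1, 2 and 3, and 495, 575 and 527 CPM in AdLmo3 replicates 1, 2 and 3. Every AdLmo3 library was above every AdLacZ library, with AdLacZ replicate 1 the lowest of all. The log2 fold change was 0.61 (standard error 0.111, edgeR adjusted p = 0.0240). *Lpin1* was no longer called without AdLacZ replicate 3 (log2 fold change 0.63, edgeR adjusted p = 0.105) or without AdLmo3 replicate 2 (0.55, edgeR adjusted p = 0.108).

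*Lpin2*, a lipin of liver and other tissues, lies on chromosome 17 from 71182560 to 71249817. It had 59.7, 69.9 and 64.1 CPM in AdLacZ and 64.0, 67.0 and 78.1 CPM in AdLmo3 replicates 1, 2 and 3. The groups overlapped, and the fold change was 1.08 (95% interval 0.931 to 1.25, edgeR adjusted p = 0.570).

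*Lpin3*, on chromosome 2 from 160880670 to 160906002, was the least abundant enzyme and the one with a negative log2 fold change. It had 172, 235 and 209 counts in AdLacZ and 157, 146 and 105 counts in AdLmo3 replicates 1, 2 and 3. These correspond to 4.83, 6.02 and 6.16 CPM and to 4.24, 3.97 and 3.89 CPM. All AdLmo3 libraries were below all AdLacZ libraries. The log2 fold change was -0.49 (standard error 0.144), and *Lpin3* was not called, with an unadjusted p of 0.00905 and an adjusted p of 0.104 from edgeR.

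*Dgat1*, on chromosome 15 from 76502015 to 76511953, encodes a DGAT of the endoplasmic reticulum that also re-esterifies fatty acids released by lipolysis. It had 258, 289 and 254 CPM in AdLacZ and 400, 446 and 453 CPM in AdLmo3 replicates 1, 2 and 3. The groups were well apart. The log2 fold change was 0.70 (standard error 0.0825, edgeR adjusted p = 0.00496), and the call held without each library in turn, with adjusted p-values of at most 0.0492.

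*Dgat2*, on chromosome 7 from 99153658 to 99182719, encodes a DGAT found at the endoplasmic reticulum and on lipid droplets. It had 343, 343 and 355 CPM in AdLacZ replicates 1, 2 and 3, and 489, 387 and 341 CPM in AdLmo3 replicates 1, 2 and 3. The AdLacZ libraries were close together, whereas the AdLmo3 libraries ran from below the lowest AdLacZ value to well above the highest. The fold change was 1.17 (95% interval 0.960 to 1.42, edgeR adjusted p = 0.357). Without AdLmo3 replicate 1 the log2 fold change dropped from 0.22 to 0.073 (edgeR adjusted p = 0.705). Within the AdLmo3 group this library had the highest *Dgat2*, *Agpat2* and *Lpin3* levels and the lowest of *Dgat1*, *Lpin1*, *Gpam*, *Agpat3* and *Lpin2*.

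**Figure D2:**
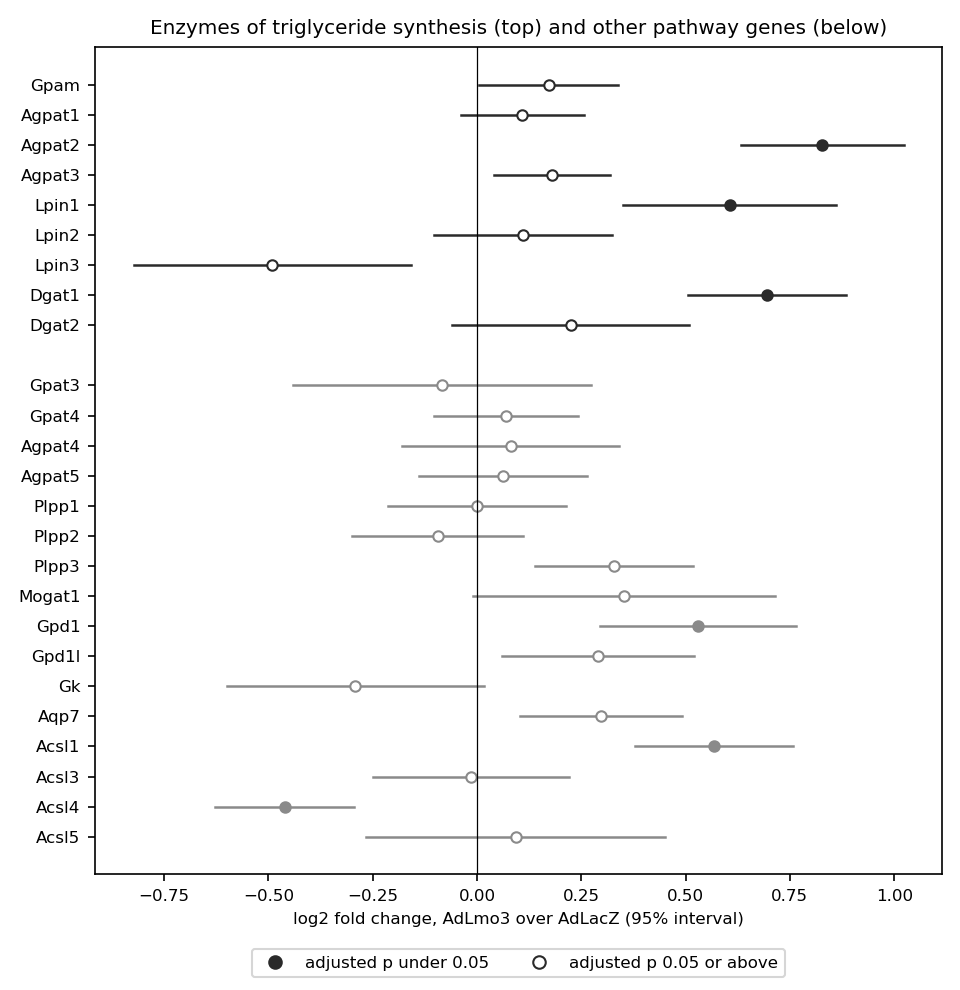
Log2 fold changes of AdLmo3 over AdLacZ (horizontal axis) with 95% intervals from the edgeR fit, for the 9 enzymes in black and 16 other tested genes of the pathway in grey. Filled points passed the adjusted p threshold of 0.05. On the higher side these are *Agpat2*, *Lpin1* and *Dgat1* in black and *Gpd1* and *Acsl1* in grey. On the lower side *Acsl4* passed, at -0.46.

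The share of each enzyme within its step was computed from counts per kb of the longest transcript, which does not depend on the scaling between libraries. *Agpat2* made up 71.5%, 68.8% and 67.5% of the AGPAT step (*Agpat1* to *Agpat3*) in AdLacZ replicates 1, 2 and 3, and 79.4%, 78.2% and 77.6% in AdLmo3 replicates 1, 2 and 3. The mean share was higher by 9.13 percentage points in AdLmo3 libraries, with no overlap between groups (exact two-sided permutation p = 0.1, the smallest the design allows, and 0.133 after Benjamini-Hochberg adjustment over 8 shares). The shares of *Agpat1* and *Agpat3* were lower by 5.06 and 4.07 points, again without overlap. Shares within a step depend on each other, and these are not falls in level. In CPM both genes were higher in all AdLmo3 than in all AdLacZ libraries, at 1.08-fold and 1.13-fold, and were not called.

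*Lpin1* held most of the lipin step, with 82.7% ± 0.887 in AdLacZ and 87.6% ± 1.22 in AdLmo3 libraries (SD, n = 3 each). *Lpin2* made up 15.2% ± 0.908 and 11.4% ± 1.21, and *Lpin3* 2.16% ± 0.113 and 1.07% ± 0.119. The groups did not overlap for any of the 3 lipins (exact permutation p = 0.1 for each). In CPM the groups did overlap for *Lpin2*, with a fold change of 1.08.

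The DGAT step was near an even split in AdLacZ libraries, where *Dgat1* made up 47.4%, 50.2% and 46.2% in replicates 1, 2 and 3. In AdLmo3 replicates 1, 2 and 3 it made up 49.5%, 58.0% and 61.4%. AdLmo3 replicate 1 lay within the AdLacZ range and the other 2 above it, so that the groups overlapped. The mean difference of 8.36 points had an exact two-sided permutation p of 0.2, and 0.2 after adjustment over the 8 shares, of which those within a step are not independent.

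**Figure D3:**
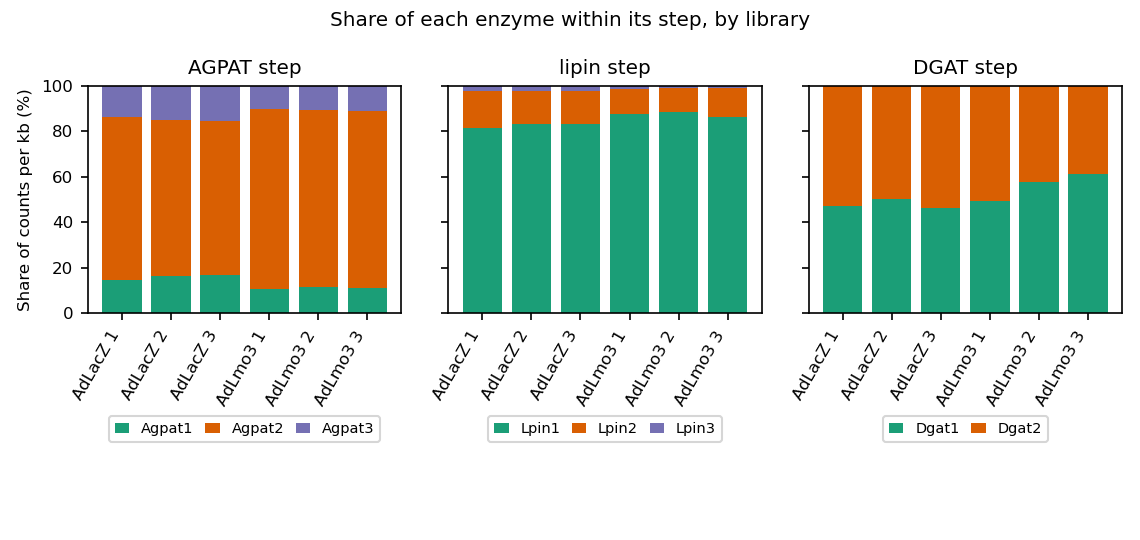
Share of each enzyme in the summed counts per kb of its step (vertical axis, percent) in every library, for the AGPAT, lipin and DGAT steps. *Agpat2* takes up 67.5% to 71.5% of its bar in AdLacZ and 77.6% to 79.4% in AdLmo3 libraries, whereas the *Dgat1* bar of AdLmo3 replicate 1, at 49.5%, lies among those of the control.

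Summed per step, the AGPAT enzymes had 322 ± 17.6 CPM per kb in AdLacZ and 505 ± 23.5 in AdLmo3 libraries, a ratio of 1.57. The lipins had 75.7 ± 9.66 and 109 ± 7.41 CPM per kb, a ratio of 1.44. The DGAT enzymes had 295 ± 8.88 and 409 ± 19.0 CPM per kb, a ratio of 1.39 (SD, n = 3 each). For all 3 sums the difference exceeded the SD of either group, and most of it came from the called enzyme. The mean went from 223 to 396 CPM per kb for *Agpat2*, from 62.7 to 95.3 for *Lpin1* and from 142 to 229 for *Dgat1*. That of *Dgat2* went from 153 to 179, with 216, 171 and 151 CPM per kb in AdLmo3 replicates 1, 2 and 3. *Agpat4* and *Agpat5* are not part of the AGPAT sum.

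Ordered by level per kb in AdLacZ libraries, *Agpat2* came first with 223 ± 18.5 CPM per kb, followed by *Dgat2* with 153 ± 2.88 and *Dgat1* with 142 ± 10.2. *Lpin1* (62.7 ± 8.59), *Agpat1* (51.7 ± 1.43) and *Agpat3* (46.9 ± 0.776) formed the middle of the order. *Gpam*, *Lpin2* (11.4 ± 0.910) and *Lpin3* (1.63 ± 0.210) came last (CPM per kb, SD, n = 3). *Dgat2* and *Dgat1* overlapped between libraries, as did *Lpin1* and *Agpat1*, and the other neighbours in the order did not. In AdLmo3 libraries *Agpat2* led with 396 ± 22.5 CPM per kb, and *Dgat1* (229, libraries 212 to 239.8) came before *Dgat2* (179 ± 33.6), with overlapping libraries. *Agpat1* and *Agpat3* also overlapped between AdLmo3 libraries, and the other neighbours there did not. With the union of all exons as gene length, *Agpat1* and *Lpin1* changed places in AdLacZ and *Agpat1* and *Agpat3* in AdLmo3 libraries.

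Other enzymes that supply or share the pathway were read from the same fit. Of 18 listed genes 16 were tested, of which 2 rose, 1 fell and 13 were not called. The called share was 18.75%, beside 4.28% of all tested genes. The listed genes had a median log2 fold change of 0.075. *Gpd1*, which makes glycerol-3-phosphate from a glycolytic intermediate, rose from 2624 ± 307 to 3787 ± 176 CPM (SD, n = 3 each; log2 fold change 0.53, edgeR adjusted p = 0.0291). *Acsl1*, the main enzyme of fat cells for activating fatty acids to acyl-CoA, rose from 2604 ± 162 to 3863 ± 95.5 CPM (0.57, edgeR adjusted p = 0.0115). *Acsl4*, an acyl-CoA synthetase with a preference for arachidonic acid, fell from 162, 176 and 185 CPM in AdLacZ to 130.5, 122 and 127 CPM in AdLmo3 replicates 1, 2 and 3 (-0.46, edgeR adjusted p = 0.0145).

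These 3 genes kept log2 fold changes of similar size when a library was left out, but not always their calls. *Acsl1* was not called without AdLacZ replicate 3 (log2 fold change 0.58, edgeR adjusted p = 0.0693) or AdLmo3 replicate 2 (0.57, 0.0574). The call of *Acsl4* was lost without AdLacZ replicate 2 (-0.46, 0.0506) or 3 (-0.41, 0.0785) or AdLmo3 replicate 2 (-0.43, 0.0834). That of *Gpd1* was lost without AdLacZ replicate 2 (0.46, 0.0751) or 3 (0.51, 0.140) or AdLmo3 replicate 2 (0.55, 0.102) or 3 (0.49, 0.0754). In these fits fewer of all genes were called, 77 at the lowest.

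The lipid phosphate phosphatases, which can also take the phosphate off phosphatidic acid, were not called (listed under the older symbols Ppap2a, Ppap2c and Ppap2b for *Plpp1*, *Plpp2* and *Plpp3*). *Plpp3* had the largest difference of them, with 317 ± 25.7 CPM in AdLacZ and 398 ± 21.4 CPM in AdLmo3 libraries (SD, n = 3 each; log2 fold change 0.33, edgeR adjusted p = 0.0676), and was named after its value was seen. *Plpp1* and *Plpp2* had log2 fold changes of 0.00047 and -0.09 (edgeR adjusted p = 1.00 and 0.616). *Mogat1*, which makes diacylglycerol from monoacylglycerol, had 3.80 ± 0.249 and 4.86 ± 0.730 CPM and was not called (edgeR adjusted p = 0.253), and *Mogat2* had at most 11 counts in a library and was not tested.

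Phosphatidic acid and diacylglycerol are also drawn off toward phospholipids or recycled by diacylglycerol kinases. Of 17 genes of these branches, 16 were tested, 1 fell, 0 rose and 15 were not called (3 at an unadjusted p under 0.05 in either direction; DESeq2 and limma voom also called 1), and their median log2 fold change was 0.048. The called share of 6.25% was near the 4.28% of all tested genes, and the 3 of 16 at an unadjusted p under 0.05 near the 20.6% of all. *Cdipt*, which makes phosphatidylinositol, fell from 77.4 ± 2.40 to 63.3 ± 1.45 CPM (SD, n = 3 each; log2 fold change -0.29, edgeR adjusted p = 0.0305). Its call was lost without any 1 of the 6 libraries (edgeR adjusted p 0.0572 to 0.138) and with the replicate number as a block (0.0582). *Cds1*, one of the genes for making CDP-diacylglycerol, had a count of 0 in all libraries, and *Cds2* had 149 ± 2.03 and 147 ± 6.81 CPM.

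Genes known to regulate these enzymes, as transcription factors and coactivators or as partners of the lipins, were taken from a list of 15, all tested. In this list 3 rose, 1 fell and 11 were not called (26.7% called, beside 4.28% of all tested genes). The median log2 fold change of the list was 0.24. Against these 4 calls, DESeq2 made 6, limma voom 4 and edgeR without a count filter 5, with 1110, 562 and 659 of all genes called. With the replicate block and after thinning edgeR made 3 each, with 498 and 525 of all genes called. *Cebpa* (log2 fold change 0.59, edgeR adjusted p = 0.0111), *Pparg* (0.48, 0.0316) and *Nr1h3* (0.39, 0.0405), which encode the adipogenic factors C/EBPα and PPARγ and the oxysterol receptor LXRα, were those that rose. *Usf1*, an E-box-binding factor, fell (-0.27, 0.0429). *Ctdnep1* and *Cnep1r1*, the phosphatase and its subunit that dephosphorylate lipin 1, had log2 fold changes of -0.07 and -0.10 and were not called (edgeR adjusted p = 0.526 and 0.464). *Cebpa* lost its call without AdLacZ replicate 3 (0.0601), *Pparg* without each of the AdLacZ libraries or AdLmo3 replicate 2 or 3 (0.0710 to 0.108), and *Nr1h3* and *Usf1* without any 1 library (0.0589 to 0.134 and 0.0655 to 0.148). The edgeR adjusted p of *Usf1* was 0.0646 with the replicate block, 0.0534 without a count filter and 0.0516 after thinning.

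Of the 14 adipocyte markers 9 rose, 0 fell and 5 were not called in edgeR. With 562 of all genes called, limma voom also called 9, and DESeq2 called 10, with 1110 of all genes called. The share called by edgeR was 64.3%, beside 4.28% of all tested genes. At an unadjusted p under 0.05, against 20.6% of all tested genes, edgeR had 11 of these markers. Their summed level was 24947 to 27958 CPM in AdLacZ and 33379 to 40822 CPM in AdLmo3 libraries, and their median log2 fold change was 0.58. Of the 3 most abundant by the mean over all 6 libraries, *Fabp4* rose from 3467 ± 235 to 5312 ± 557 CPM (edgeR adjusted p = 0.0187) and *Cfd* from 2428 ± 71.9 to 4271 ± 545 CPM (edgeR adjusted p = 0.00780), while *Lpl* was not called, with 9648 ± 866 and 11295 ± 962 CPM (SD, n = 3 each; edgeR adjusted p = 0.294). *Cd36*, which was above *Cfd* in AdLacZ libraries, had 3120 ± 670 and 3352 ± 532 CPM and was not called (edgeR adjusted p = 0.794). The number of markers called went down to 2 without AdLacZ replicate 3 and to 5 without AdLacZ replicate 2 or AdLmo3 replicate 2.

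Markers of preadipocytes and fibroblasts did not pass the test, with 0 of 13 tested genes called by edgeR, DESeq2 and limma voom and 0, 2 and 0 at an unadjusted p under 0.05. In edgeR 4.28% of all tested genes were called and 20.6% had an unadjusted p under 0.05. Among 13 genes, 0 calls are near the called share of all genes and do not show that these markers were unchanged. Their summed level was 26725 to 32440 CPM in AdLacZ and 25204 to 37222 CPM in AdLmo3 libraries, which overlapped, and none of the 14 was at 0 in every library. *Col3a1* had 12335 ± 2470 CPM in AdLmo3 libraries, *Col1a2* 8310 ± 1104 and 8800 ± 1916 CPM, and *Col1a1* 5105 ± 862 and 5692 ± 1260 CPM in AdLacZ and AdLmo3 libraries (SD, n = 3 each; edgeR adjusted p 0.691 to 0.840 for the 3 genes). The part of either marker list in the differences of *Agpat2*, *Lpin1* and *Dgat1* was not tested.

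**Figure D4:**
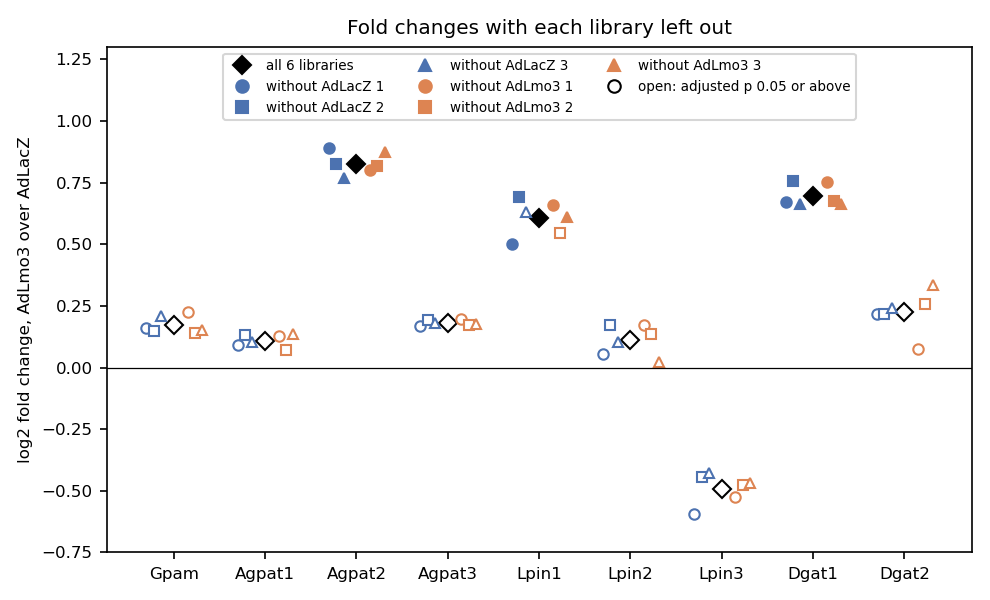
Log2 fold changes of the 9 enzymes (vertical axis) with all 6 libraries (black diamonds) and with each AdLacZ (blue) or AdLmo3 (orange) library left out, filled where the edgeR adjusted p was under 0.05. *Agpat2* stays between 0.77 and 0.89 and *Dgat1* between 0.66 and 0.76, *Lpin1* loses its call in 2 of 6 cases, and *Dgat2* drops to 0.073 without AdLmo3 replicate 1.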

How the data were processed

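The authors sequenced single reads of 75 bp, mapped them with STAR (version 2.5.0b in the submitters' processing notes) to mm10 and deposited raw read counts per gene symbol, 1 library a table. The counting program, annotation and strand setting are not given in the sources used here. The last lines of each table, reads in no gene (7.15% to 8.94%) or in several (0.476% to 0.543%), were left out. Groups came from the sample titles. The members, gene lists, lengths, motifs and tests were chosen with earlier results of these data known.

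The test was edgeR's quasi-likelihood fit (version 4.0.16 under R 4.3.3, no block) after TMM scaling and filterByExpr. P-values were adjusted by Benjamini-Hochberg across all 12766 genes, at a threshold of 0.05. The tests were also run on counts simulated with the same extra spread for every gene, which does not give the error rate in these data. Alternatives were DESeq2 1.42.0, limma 3.58.1 voom, other scalings and count filters, the replicate block, thinning to the smallest library, other gene lengths, and leaving out each library. Replicates of a group differed by more than sampling noise (chi-square per degree of freedom 24.1 to 64.8). The p-values measure the spread between infections of 1 cell line, and the floor of 3 counts covers counting error only. Positions and lengths came from GENCODE M21 (GRCm38), and figures from matplotlib 3.10.9.

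The 9 enzymes were described in full. Of the lists of other pathway enzymes, branches and regulators the called and untested genes were named. Of the marker lists the 3 of highest mean CPM were named, and for each enzyme the gene of the most like profile. *Gpat3*, *Gpat4*, *Agpat4*, *Agpat5*, *Plpp1* to *Plpp3*, *Mogat1*, *Cds2*, *Cd36*, *Cd34*, *Wnt10b*, *Ctdnep1* and *Cnep1r1* were named beside them after their values were seen.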

Additional observations from a re-analysis of the deposited data

How the results depend on the processing

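*Agpat2* and *Dgat1* were called and all 9 enzymes kept the direction of their log2 fold change in each of the 14 alternative fits; *Lpin1* was called in 12 of them, and *Gpam*, *Agpat1*, *Agpat3*, *Lpin2*, *Lpin3* and *Dgat2* in 0 (edgeR, DESeq2 or limma voom). At an unadjusted p under 0.05 each fit had 3 to 5 enzymes higher and 1 lower. Other scalings moved no log2 fold change of an enzyme across 0 or the threshold. The cause of the changes below was not tested. DESeq2 called 1110 of all genes against 547 and 5 other pathway enzymes against 3. Over the fits that left out 1 library, the calls ranged from 77 to 501 among all genes, from 2 to 3 among the 9 enzymes, from 0 to 4 among other pathway enzymes, from 0 to 2 among regulators and from 2 to 9 among adipocyte markers, and were 0 to 0 among the branch genes (1 to 4 at an unadjusted p under 0.05). Without AdLacZ replicate 3 or AdLmo3 replicate 2, edgeR called 0 other pathway enzymes, with 6 and 7 at an unadjusted p under 0.05, and 77 and 152 of all genes. The former also left 0 regulators called, with 7 at an unadjusted p under 0.05. Leaving out AdLacZ replicate 1, AdLacZ replicate 2 or AdLmo3 replicate 3 left 284, 238 and 289.

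No label says that the replicate numbers mark a batch, and they were not taken as pairs. Same-numbered libraries deviated from their group means with correlations of 0.035, 0.18 and 0.18, which does not settle whether they were paired. With the replicate number as a block, 498 of all genes, 3 of the 9 enzymes and 0 of the branch genes (3 at an unadjusted p under 0.05) were called. The direction of every share within a step was the same with other gene lengths and without each library. *Lpin3* had the lowest depth of the enzymes, with 105 to 235 counts in a library, and thinning all libraries to the smallest gave it a log2 fold change of -0.50 (edgeR adjusted p = 0.0982).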

Other observations

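The profile most like that of each enzyme was looked for among 9140 tested genes with a mean of at least 10 CPM, by the root mean square difference of log2 CPM over the 6 libraries after centring each gene on its mean. The nearest profile to *Dgat1* was that of *Eif4ebp1*, which encodes a repressor of mRNA translation, at 0.0305, and its own log2 fold change was 0.68. *Lpin1* was nearest to *Cbr3*, a carbonyl reductase gene, at 0.0520, and *Agpat2* to *Fam110c* at 0.0731. For the enzymes that were not called, the nearest were *Ankrd40* to *Gpam* (0.0166), *Nedd9* to *Agpat1* (0.0205), *Ndufv2*, a gene of respiratory complex I, to *Agpat3* (0.0183), *Nup155*, a nuclear pore gene, to *Lpin2* (0.0252), *Ccdc47* to *Lpin3* (0.0431) and *Gga2* to *Dgat2* (0.0677). Among the enzymes themselves the closest pairs were of enzymes not called. These were *Agpat1* and *Agpat3* at 0.051, *Gpam* and *Agpat3* at 0.059, and *Gpam* and *Agpat1* at 0.077. *Dgat1* and *Lpin1* were 0.108 apart, *Dgat1* and *Agpat2* 0.146 and *Agpat2* and *Lpin1* 0.221, whereas *Dgat1* and *Dgat2* were 0.327 apart. The measure includes the difference between the groups, and these distances are not separate evidence for the calls.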
